A study of Mus musculus with 36 samples.

Results

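The 33 genes described here encode enzymes and carriers of fatty acid oxidation. They were chosen by gene name, with no threshold on a measured value but with earlier results of these data known. All 33 were found among the 27562 genes measured. They cover 8 roles: activation (Acsl1, Acsl4 and Acsl5), the carnitine shuttle (Cpt1a, Slc25a20, Cpt2 and Crat), acyl-CoA dehydrogenases (Acadvl, Acadl, Acadm and Acads), the later mitochondrial steps (Hadha, Hadhb, Echs1, Hadh, Acaa2 and Acat1), unsaturated acids (Eci1, Eci2 and Decr1), electron transfer (Etfa, Etfb and Etfdh), the peroxisome (Abcd2, Abcd3, Acox3, Ehhadh, Hsd17b4, Acaa1a, Acaa1b and Decr2) and thioesterases (Acot1 and Acot2).

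RNA-seq was made from alveolar macrophages (AΦ) and monocytes sorted from mouse lung, with 36 libraries in 12 groups of 3. By the study's account 3 mice were taken from each of the 4 combinations of exposure and time, so cell fractions of one exposure and time may share animals. The labels do not say which libraries share a mouse, and the fractions were compared as independent samples. The mice were male chimeras: C57BL/6J hosts carrying CD45.2 were irradiated with the chest shielded, given busulfan, and transplanted with marrow of CD45.1 congenic mice, so the lung kept host cells. They breathed filtered air (FA) or concentrated ambient PM2.5, airborne fine particles, for 4 or 32 weeks. Tissue-resident AΦ (TR-AΦ) were the CD45.2 AΦ, sorted at 4 and 32 weeks, and bone marrow-derived AΦ (BM-AΦ) were the CD45.1 AΦ, sorted at 32 weeks. Monocytes came from the CD45.2 fraction at 4 weeks and from both fractions at 32 weeks. By the study's account nearly all monocytes in the blood of these mice were of donor (CD45.1) origin before exposure, so CD45.2 monocytes are the host's. The later monocytes are only numbered 1 and 2, and taking 1 as CD45.1 and 2 as CD45.2, as for AΦ, is a reading of the labels. Each of the 6 populations therefore had 3 FA and 3 PM2.5 libraries. Host and donor cells differ in more than origin, since every host was irradiated and given busulfan.

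Fatty acid oxidation begins when a synthetase joins the acid to coenzyme A. Carnitine carriers then bring long chains into the mitochondrion, where repeated rounds of dehydrogenation, hydration, dehydrogenation and thiolysis release acetyl-CoA. Peroxisomes run a parallel path that shortens very long and branched chains. AΦ take up and degrade the lipids of lung surfactant and depend on the nuclear receptor PPARγ, whereas monocytes are blood-borne cells that have not yet settled in the airspace.

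Levels are in FPKM (fragments per kilobase of transcript per 1000000 mapped fragments), which allow genes to be compared per length. How many reads lie behind a level is not known. Comparisons were made by limma on the log2(FPKM + 1) scale, so a log2 fold change understates the change of low genes, and p-values were adjusted by the Benjamini-Hochberg method over all genes tested with a threshold of 0.05. A gene that passed is called. The sorted cells carried their markers in sum. The summed FPKM of 10 AΦ markers was 6534 to 13990 in the 18 AΦ libraries and 281 to 1639 in the 18 monocyte libraries. That of 9 monocyte markers was 105 to 567 in AΦ and 1192 to 4405 in monocytes. Chil3 and Ear2 gave most of the AΦ sum, and not every marker went with it. Fcgr1, from the AΦ list, was 13.7 to 18.7 FPKM in TR-AΦ and 20.7 to 39.0 in CD45.2 monocytes of 32 weeks. Its AΦ and monocyte ranges overlapped at 4 weeks and in CD45.1 cells. Some libraries held markers of the other cell type. The 4-week TR-AΦ libraries numbered 2 had Plac8, a monocyte gene, at 32.4 (FA) and 13.5 FPKM (PM2.5), against 0 to 0.273 in the other 4-week TR-AΦ libraries. BM-AΦ had Ccr2, also a monocyte gene, at 6.20 to 36.8 FPKM, against 2.09 to 6.01 in TR-AΦ of 32 weeks. The summed FPKM of 5 dendritic cell markers was 5.54 to 19.6 in BM-AΦ and 1.46 to 4.74 in those TR-AΦ. The monocyte marker sums of these populations overlapped (254 to 392 and 105 to 377). The part of these markers in the comparisons of BM-AΦ was not tested. CD45.2 monocytes of 32 weeks had Ear1, an AΦ gene, at 14.3 to 80.1 FPKM, against 0 to 4.67 in the other 12 monocyte libraries. The 4-week monocyte libraries numbered 2 had S100a9, a neutrophil gene, at 248 (FA) and 792 FPKM (PM2.5). The other 4 monocyte libraries of 4 weeks had 0.412 to 3.03. S100a8 was also highest there (46.7 and 169 FPKM, against 0 to 9.06). Other neutrophil genes did not all follow: Retnlg was highest in FA replicate 0 (30.7) and Mmp8 in PM2.5 replicate 1 (38.1). Ly6g, Camp and Ltf were at most 2.47. Below, these 2 libraries are said to hold neutrophil markers by S100a8 and S100a9. Without the 2 monocyte libraries with S100a9, 27 of the 33 genes were called higher in AΦ at 4 weeks. Without the 2 AΦ libraries with Plac8, Etfdh lost its call at 4 weeks (adjusted p = 0.0827 by limma). In that fit Acsl4 was called lower in AΦ (log2 fold change -0.62, adjusted p = 0.0496).

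The 33 genes together were higher in AΦ than in monocytes in every library. Their summed FPKM was 596 to 784 in TR-AΦ at 4 weeks, 775 to 943 in TR-AΦ at 32 weeks and 759 to 882 in BM-AΦ. In monocytes it was 280 to 346 (CD45.2, 4 weeks), 296 to 411 (CD45.2, 32 weeks) and 267 to 396 (CD45.1, 32 weeks). The lowest AΦ library thus lay above the highest monocyte library. In sorted bulk samples, more transcript per cell and more cells that express a gene cannot be told apart. At 4 weeks 26 of the 33 genes were higher in AΦ and 0 were lower, where 22.6% of all 13307 genes tested were higher and 25.5% were lower. At 32 weeks 26 were higher and 0 lower in CD45.2 cells (23.6% and 23.7% of all genes), and 30 were higher and 0 lower in CD45.1 cells (27.1% and 23.8%). Acaa1b and Ehhadh averaged 0.688 and 0.727 FPKM over the monocyte libraries, below the 1 FPKM a gene had to average over all libraries to be tested, so they were tested only through their level in AΦ. Of the other 31 genes 24, 24 and 28 were called higher. Median log2 fold changes of the 33 genes were 0.98, 1.02 and 1.08 in these 3 comparisons, beside -0.02, 0.00 and 0.03 over all genes tested. With values rescaled to sum to 1000000 in each library, the all-gene medians moved to 0.17, 0.14 and 0.33 and those of the 33 genes to 1.17, 1.14 and 1.33. That scaling also moved the share of called genes that were higher in AΦ from 47.0%, 49.9% and 53.2% to 66.2%, 63.2% and 75.4%, and it called 28, 28 and 31 of the 33 genes, all of them higher.

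**Figure D1:**
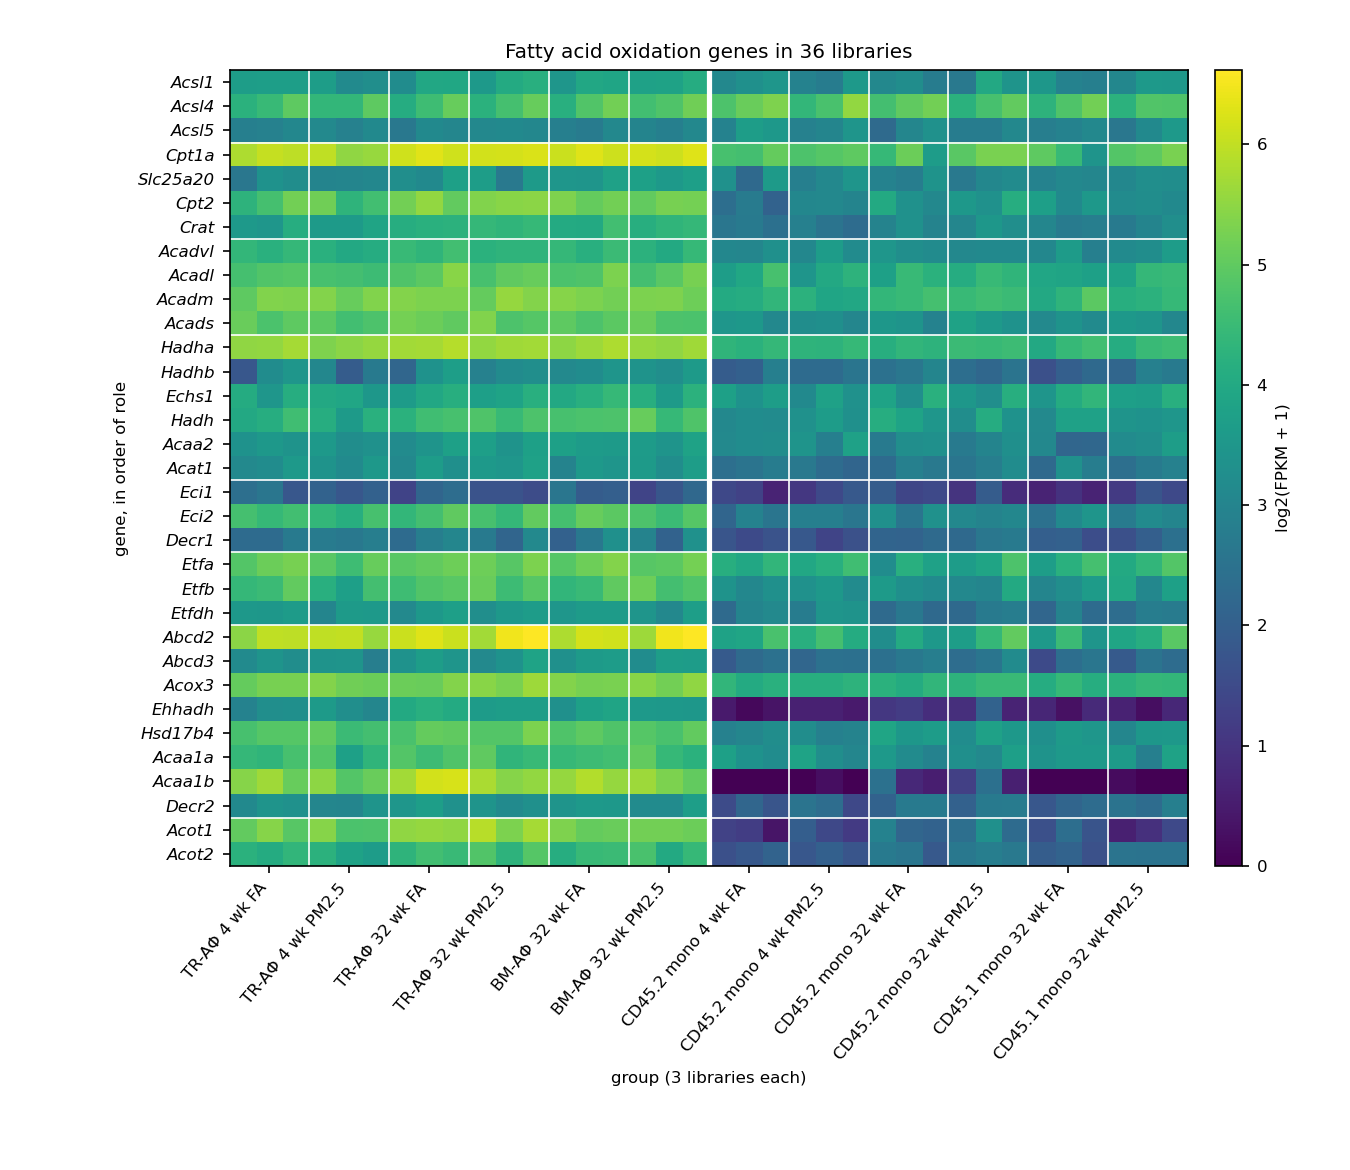
Level of each of the 33 genes (rows, in the order of their roles, with white lines between roles) in each of the 36 libraries (columns, 3 per group), as log2(FPKM + 1) by colour. AΦ are left of the thick white line and monocytes right of it. Acaa1b, Ehhadh and Acot1 are dark in monocytes and bright or mid-range in AΦ, while Acsl4 and Acsl5 look alike on the left and right.

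In all 3 comparisons 24 genes were called higher in AΦ, 4 were called in 2 of them (Acsl1, Acaa2, Eci1 and Decr1), 2 in 1 (Slc25a20 and Hadhb) and 3 in none (Acsl4, Acsl5 and Echs1). Groups did not overlap for 20, 22 and 25 genes, all higher in AΦ, where 13.6%, 12.9% and 16.1% of all genes were higher without overlap. For 15 of the 33 genes each of the 18 AΦ libraries lay above each of the 18 monocyte libraries, beside 777 of 13307 genes tested (5.84%). These 15 were Cpt1a, Cpt2, Acadvl, Acadm, Acads, Hadha, Eci2, Abcd2, Acox3, Ehhadh, Hsd17b4, Acaa1b, Decr2, Acot1 and Acot2. Ehhadh and Acaa1b, tested only through their level in AΦ, are in each of these counts, so their part in them is no evidence. The shares of all genes likewise include genes that passed the filter through 1 cell type. The abundance order also differed between the cell types. In AΦ Abcd2 and Cpt1a had the highest mean FPKM of the 33 genes in each of the 3 populations (56.4 and 55.9 in TR-AΦ at 4 weeks), whereas in CD45.2 monocytes at 4 weeks the first was Acsl4 (31.7) followed by Cpt1a (27.7). The lowest in these monocytes were Acot1 (1.49), Ehhadh (0.370) and Acaa1b (0.0300).

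**Figure D2:**
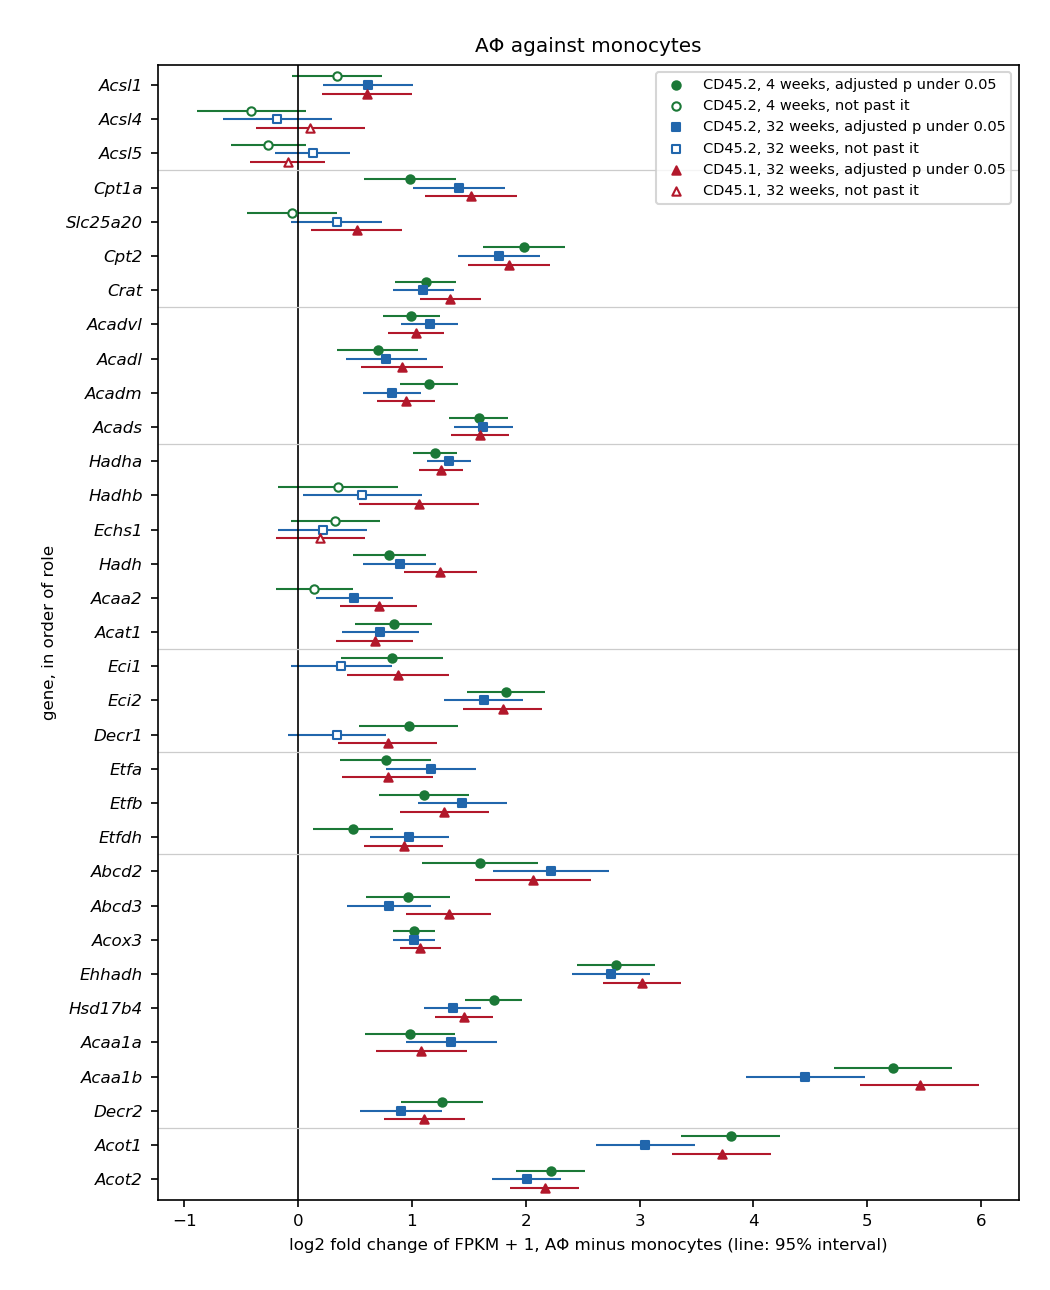
Log2 fold change of FPKM + 1 (horizontal axis, AΦ minus monocytes) with its 95% interval for each of the 33 genes, for CD45.2 cells at 4 weeks (green circles), CD45.2 cells at 32 weeks (blue squares) and CD45.1 cells at 32 weeks (red triangles), with filled symbols for an adjusted p under 0.05. Acaa1b is farthest right at 5.23, 4.45 and 5.46, and the intervals of Acsl4, Acsl5 and Echs1 cross 0 in all 3 comparisons.

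Of the 3 activating synthetases 0, 1 and 1 were called. Acsl4, a synthetase that prefers arachidonic acid, ranged from 16.2 to 36.3 FPKM in AΦ (median 24) and from 17.6 to 45.9 in monocytes (median 26.9). Acsl5 ranged from 5.33 to 7.84 FPKM in AΦ and from 3.86 to 11.9 in monocytes. For both genes the AΦ and monocyte ranges overlapped. Their log2 fold changes were -0.41 and -0.26 at 4 weeks, -0.18 and 0.13 in CD45.2 cells at 32 weeks, and 0.11 and -0.09 in CD45.1 cells (adjusted p 0.150 to 0.741), and the 95% intervals of Acsl4 reached from -0.89 to 0.59. Rescaling to an equal sum turned the sign of Acsl5 at 4 weeks (0.02) and in CD45.1 cells (0.22). Without the 4-week AΦ libraries that hold monocyte markers Acsl4 was called lower in AΦ at 4 weeks (log2 fold change -0.62, adjusted p = 0.0496), as it was with the library number as a replicate block (-0.41, 0.00029). Acsl1, which activates long chains at the mitochondrial surface and the endoplasmic reticulum, was higher in AΦ at 32 weeks by 0.61 (CD45.2, adjusted p = 0.00969) and 0.60 (CD45.1, 0.0104), and its 4-week value was 0.34 (0.148). The CD45.2 call was lost in a model of only the libraries compared (0.0568), and the 4-week value was called on rescaling to an equal sum (0.55, 0.0258) and without the monocyte libraries that hold neutrophil markers (0.51, 0.0487).

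Of the 4 genes of the carnitine shuttle, 3 were called higher in AΦ at 4 weeks and in CD45.2 cells at 32 weeks, and 4 in CD45.1 cells. Cpt1a forms acylcarnitine at the outer mitochondrial membrane and is the regulated entry step. Its level was 45.0 to 79.5 FPKM in AΦ (median 69.0) and 9.73 to 38.2 in monocytes (median 28.8), with log2 fold changes of 0.98, 1.42 and 1.52. Cpt2, which returns the chain to coenzyme A inside the mitochondrion, stood at 18.4, 24.2 and 36 FPKM in FA and 35.5, 18.9 and 23.4 in PM2.5 TR-AΦ at 4 weeks. In the CD45.2 monocytes of 4 weeks it stood at 4.27, 5.72 and 3.25 FPKM (FA) and 7.34, 7.48 and 6.91 (PM2.5). All 18 AΦ libraries (18.4 to 45.6) were above all 18 monocyte libraries (3.25 to 16.4). The log2 fold change of Cpt2 stood at 1.98 (SE 0.17, adjusted p = 2.62e-10) at 4 weeks, 1.77 (2.76e-09) in CD45.2 and 1.86 (1.11e-09) in CD45.1 cells at 32 weeks. Crat, which exchanges acetyl groups with carnitine, was higher by 1.12, 1.10 and 1.34. Slc25a20, the carnitine-acylcarnitine carrier of the inner membrane, had -0.05, 0.34 and 0.52, of which the last was called (adjusted p = 0.0283). That call was lost on leaving out BM-AΦ FA replicate 2, BM-AΦ PM2.5 replicate 0, or CD45.1 monocyte FA or PM2.5 replicate 0 (adjusted p 0.0509 to 0.0692), and without TR-AΦ PM2.5 replicate 1 the CD45.2 difference of 32 weeks was called (0.50, 0.0296). Its 4-week value turned to 0.19 on rescaling to an equal sum.

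All 4 acyl-CoA dehydrogenases were called higher in AΦ in each of the 3 comparisons. They differ in the chain length they oxidise, from very long (Acadvl) over long (Acadl) and medium (Acadm) to short (Acads). Acadm had the highest level of them, 30.4 to 46.5 FPKM in AΦ against 13.7 to 29.7 in monocytes, and Acads had the largest difference, with log2 fold changes of 1.59, 1.63 and 1.60 and levels of 23.7 to 40.3 against 6.63 to 13.0 FPKM. Acadvl was higher by 0.99, 1.16 and 1.04, and Acadl by 0.70, 0.78 and 0.91. The AΦ and monocyte libraries overlapped only for Acadl (22.2 to 42.3 against 10.0 to 25 FPKM).

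The later mitochondrial steps were less uniform. Of 6 genes 3 were called higher at 4 weeks, 4 in CD45.2 cells and 5 in CD45.1 cells at 32 weeks. Hadha and Hadhb encode the subunits of the mitochondrial trifunctional protein and lie head to head on chromosome 5 of mm10, with 85 bases between them (Hadha chr5:30118304-30155162 on the minus strand, Hadhb chr5:30155248-30184593 on the plus strand). Hadha was 39.2 to 57.5 FPKM in AΦ and 14.9 to 23.6 in monocytes, with log2 fold changes of 1.20, 1.33 and 1.26 (SE 0.10). Hadhb was 2.48 to 12.1 FPKM in AΦ and 2.09 to 7.02 in monocytes, so its libraries overlapped. Its log2 fold changes were 0.35 (adjusted p = 0.272), 0.57 (0.0716) and 1.06 (0.00107). Without FA replicate 0 of the TR-AΦ it was called at 4 weeks (0.61, 0.0327) and in CD45.2 cells at 32 weeks (0.79, 0.00902). In the latter it was also called with quantile normalization (0.0394), on rescaling to an equal sum (0.0364) and with either replicate block (0.0262 and 0.0106). Hadh, the hydroxyacyl-CoA dehydrogenase of shorter chains, was higher by 0.80, 0.89 and 1.25, and Acat1, the acetoacetyl-CoA thiolase, by 0.84, 0.72 and 0.67. Acaa2, the mitochondrial thiolase, had 0.14 (0.50), 0.49 (0.0140) and 0.71 (0.000691), and the second lost its call without CD45.2 monocyte FA replicate 0 (0.0523). Echs1, the short-chain enoyl-CoA hydratase, had 0.33, 0.22 and 0.20 (0.164 to 0.418) and ranged from 10.1 to 20.7 FPKM in AΦ and from 7.90 to 19.6 in monocytes. On rescaling to an equal sum Echs1 was called higher at 4 weeks (0.56, adjusted p = 0.0129) and in CD45.1 cells (0.52, 0.0181). At 4 weeks it was also called with a replicate block within exposure and time (0.33, 0.0399).

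Of the genes that handle double bonds, Eci2, an enoyl-CoA isomerase, had the largest difference: 16.9 to 32.7 FPKM in AΦ against 3.47 to 9.92 in monocytes, with log2 fold changes of 1.83 (SE 0.17, adjusted p = 5.84e-10), 1.63 and 1.8. Eci1, a relative of Eci2, and Decr1, the mitochondrial dienoyl-CoA reductase, were low in AΦ (medians of 2.89 and 5.59 FPKM). They were called higher in AΦ at 4 weeks (0.82 and 0.97) and in CD45.1 cells (0.88 and 0.79) but not in CD45.2 cells at 32 weeks (0.38 and 0.34, adjusted p 0.155 and 0.189). Eci1 was called there without TR-AΦ FA replicate 0 (0.54, 0.0458) or without CD45.2 monocyte PM2.5 replicate 1 (0.55, 0.0360). The electron-transfer genes Etfa and Etfb, subunits of the flavoprotein that takes electrons from the dehydrogenases, and Etfdh, which passes them to ubiquinone, were called higher in all 3 comparisons. Etfb was 12.3 to 34.6 FPKM in AΦ against 7.03 to 15.3 in monocytes and had the largest log2 fold change of the 3 genes in each comparison (1.11, 1.44 and 1.29). Etfdh at 4 weeks (0.48, adjusted p = 0.0205) lost its call without the 4-week AΦ libraries that hold monocyte markers (0.42, 0.0827), and without TR-AΦ PM2.5 replicate 1 or monocyte FA or PM2.5 replicate 0 (adjusted p 0.0553 to 0.0866).

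All 8 peroxisomal genes and both thioesterases were called higher in AΦ in each comparison, with median log2 fold changes of 1.43, 1.35 and 1.39 for the peroxisome and 3.01, 2.53 and 2.94 for the thioesterases. Acaa1b, Acot1 and Ehhadh had the 3 largest differences of all 33 genes in each comparison, of which Acaa1b and Ehhadh had passed the filter through AΦ alone. Acaa1b (chr9:119148023-119157093, minus strand) and Acaa1a (chr9:119339676-119350299, plus strand) encode peroxisomal thiolases. Acot1 (chr12:84009490-84018371) and Acot2 (chr12:83987861-83993873), neighbours on the plus strand, encode thioesterases that release free acid from acyl-CoA in the cytosol and in the mitochondrion. Ehhadh (chr16:21761287-21787807, minus strand) encodes the peroxisomal L-bifunctional enzyme, which carries out hydration and dehydrogenation. Coordinates are those of mm10. The upstream regions of these 5 genes are printed because they include the 3 largest differences and each pair of close relatives. Sequences are from RefSeq (GRCm38.p6), 5′ to 3′ on the strand of the gene, limited to bases that lie in no annotated exon. The Acaa1a window ends where a GENCODE transcript starts, but it lies inside the span of the gene given here, because another transcript begins farther upstream. Capitals mark GGGCGG and CCAAT on either strand, so that CCGCCC and ATTGG are in capitals too.
Acaa1b, chr9:119157094-119157343, minus strand: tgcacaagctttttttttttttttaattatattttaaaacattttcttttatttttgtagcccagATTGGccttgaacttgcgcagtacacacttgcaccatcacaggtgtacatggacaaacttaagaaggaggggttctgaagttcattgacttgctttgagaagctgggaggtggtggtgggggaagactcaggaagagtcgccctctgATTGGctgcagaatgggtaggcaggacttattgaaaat
Acaa1a, chr9:119341160-119341293, plus strand: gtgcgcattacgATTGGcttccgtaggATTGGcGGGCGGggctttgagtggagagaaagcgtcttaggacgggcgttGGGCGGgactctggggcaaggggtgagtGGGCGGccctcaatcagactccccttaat
Acot1, chr12:84009252-84009489, plus strand: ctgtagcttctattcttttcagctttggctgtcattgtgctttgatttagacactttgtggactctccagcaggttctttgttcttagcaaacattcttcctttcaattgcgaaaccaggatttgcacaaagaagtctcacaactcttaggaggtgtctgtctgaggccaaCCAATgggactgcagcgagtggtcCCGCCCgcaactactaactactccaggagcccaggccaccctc
Acot2, chr12:83987611-83987860, plus strand: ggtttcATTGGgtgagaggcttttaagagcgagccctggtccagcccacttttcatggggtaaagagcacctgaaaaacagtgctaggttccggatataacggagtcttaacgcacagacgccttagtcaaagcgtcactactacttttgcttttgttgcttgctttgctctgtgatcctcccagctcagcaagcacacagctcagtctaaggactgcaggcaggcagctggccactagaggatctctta
Ehhadh, chr16:21787835-21788084, minus strand: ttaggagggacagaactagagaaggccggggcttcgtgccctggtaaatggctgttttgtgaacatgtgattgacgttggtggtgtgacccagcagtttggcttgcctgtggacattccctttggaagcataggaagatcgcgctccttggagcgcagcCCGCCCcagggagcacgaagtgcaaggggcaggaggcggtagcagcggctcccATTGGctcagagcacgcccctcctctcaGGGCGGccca

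The Acaa1a window holds 3 GGGCGG and 2 CCAAT in 134 bases at a GC content of 61.2%, and that of Acaa1b 0 and 2 in 250 bases at 41.6%. The windows differ in length and in their place relative to the gene span, so these counts are not matched. Acot1 has 1 of each motif, Acot2 has 0 GGGCGG and 1 CCAAT, and Ehhadh has 2 and 1. Aligned over the whole upstream window, Acot1 and Acot2 were identical at 47.7% of the alignment and Acaa1a and Acaa1b at 48.1%. Upstream entries were found for 27 of the 33 genes (not for Acaa2, Abcd2, Hsd17b4, Decr1, Crat and Acat1). In the 250 bases upstream of the start, GGGCGG on either strand was present for 18 of these 27 (66.7%) against 32.7% of 32851 windows of all genes, with a median GC content of 59.6% against 52.4%. CCAAT was present for 12 (44.4%, against 33.8%) and AGGTCA, the core element of nuclear receptor sites, for 4 (14.8%, against 14%). A pair of AGGTCA copies with 1 base between them was present for 0 of the 27 and in 0.0335% of all windows. These matches are counts of letters, not of bound sites.

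Acaa1b separated the cell types most. In TR-AΦ at 4 weeks it stood at 41.5, 49.6 and 32.6 FPKM (FA) and 44.3, 28.0 and 33.4 (PM2.5), and over all 18 AΦ libraries it ranged from 28.0 to 73.5 with a median of 45.9. In CD45.2 monocytes of 4 weeks and CD45.1 monocytes of 32 weeks it was listed at 0 in 10 of 12 libraries and stood at 0.180 and 0.153 in the other 2. CD45.2 monocytes of 32 weeks had 4.54, 0.697 and 0.477 FPKM (FA) and 1.38, 4.48 and 0.487 (PM2.5), each above all other monocytes and far below the lowest AΦ library. Its log2 fold changes were 5.23 (SE 0.25, adjusted p = 1.93e-15), 4.45 (7.59e-14) and 5.46 (8.35e-16). Against libraries at or near 0 these sizes depend on the pseudocount and are no estimate of the ratio: at a pseudocount of 0.1 they were 8.31, 5.26 and 8.57. Its relative Acaa1a was 12.5 to 31.5 FPKM in AΦ and 6.18 to 13.3 in monocytes, with log2 fold changes of 0.98, 1.35 and 1.08.

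Acot1 stood at 31.4, 41.3 and 28.9 FPKM (FA) and 41.8, 25.8 and 26.5 (PM2.5) in TR-AΦ at 4 weeks, and at 1.46, 1.3 and 0.304 (FA) and 2.97, 1.73 and 1.20 (PM2.5) in the monocytes of the same weeks. Over all libraries it ranged from 25.8 to 59.2 in AΦ and from 0.304 to 8.95 in monocytes. Its log2 fold changes were 3.80 (SE 0.21, adjusted p = 3.07e-14), 3.05 (2.86e-12) and 3.72 (5.16e-14). Acot2 was 11.7 to 28.2 FPKM in AΦ and 2.08 to 6.08 in monocytes, with 2.22 (SE 0.15, 1.14e-12), 2.01 (9.67e-12) and 2.17 (2.15e-12). These related genes share sequence, so reads can be split between them and the level of each is uncertain. Over the coding sequence Acaa1b and Acaa1a were 96.5% identical and 37.9% of the 50-base windows of Acaa1b also occurred in Acaa1a, and Acot1 and Acot2 were 86.1% identical with 43.6% of windows shared.

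Ehhadh was 6.71 to 17.2 FPKM in AΦ (median 11) and 0.0987 to 3.26 in monocytes (median 0.573), with log2 fold changes of 2.80 (SE 0.17, adjusted p = 1.26e-13), 2.75 (2.34e-13) and 3.02 (3.28e-14). Hsd17b4, the D-bifunctional enzyme that carries out the same steps on other substrates, was 21.9 to 38.7 FPKM against 6.43 to 13.9, with 1.72, 1.36 and 1.46. Abcd2 and Abcd3 are transporters that bring acyl-CoA into the peroxisome. Abcd2 was among the highest of the 33 genes in AΦ (43.3 to 97.2 FPKM) and stood at 8.40 to 31.8 in monocytes, with log2 fold changes of 1.60 (SE 0.25, adjusted p = 4.47e-06), 2.22 (2.20e-08) and 2.06 (7.96e-08). Abcd3 was higher by 0.96, 0.80 and 1.32. Acox3, an acyl-CoA oxidase of branched chains, was 32.4 to 49.2 FPKM in AΦ and 15.5 to 21.4 in monocytes and had the smallest SE of the 33 genes (0.09), with 1.02, 1.02 and 1.08. Decr2, the peroxisomal dienoyl-CoA reductase, was higher by 1.27, 0.90 and 1.11.

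**Figure D3:**
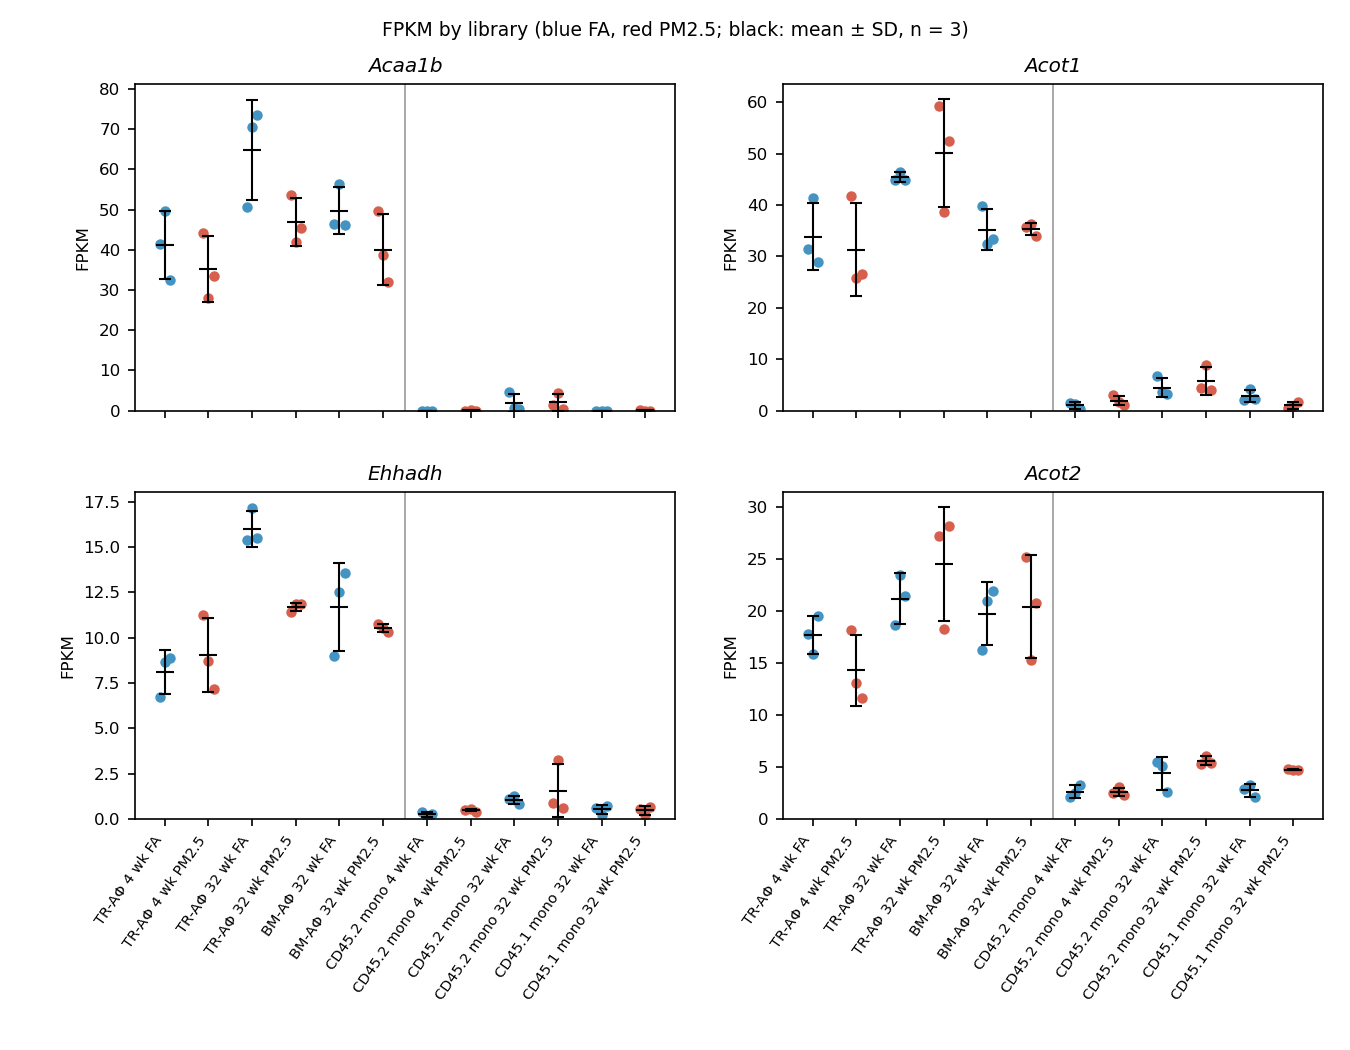
FPKM of Acaa1b, Acot1, Ehhadh and Acot2 in each library (points, blue FA and red PM2.5) by group, with the mean and SD of 3 libraries in black. AΦ groups are left of the grey line and monocyte groups right of it. Every AΦ point lies above every monocyte point for all 4 genes, and Ehhadh is highest in the FA group of TR-AΦ at 32 weeks (15.4 to 17.2).

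The difference between AΦ and monocytes was compared across time and origin. For cell type by time in CD45.2 cells limma called 0 of the 33 genes (7.88% of all genes), with 5 at an unadjusted p under 0.05 (20.3% of all genes). The smallest p were those of Acot1 (-0.75 at 32 weeks relative to 4 weeks, 95% interval -1.36 to -0.14, adjusted p = 0.134) and Acaa1b (-0.77, -1.51 to -0.03, 0.222). For cell type by origin at 32 weeks limma also called 0 (1.08% of all genes), with 2 at an unadjusted p under 0.05 (10.3% of all genes), Acaa1b (-1.01, -1.75 to -0.27, adjusted p = 0.241) and Acot1 (-0.67, -1.28 to -0.06, 0.414). With a pseudocount of 0.1, which weighs values near 0 more, Acaa1b was called in each (-3.05, adjusted p = 0.00136, and -3.31, 0.00379). Both comparisons use the CD45.2 monocytes of 32 weeks, the libraries with Ear1. The part of those markers in the result was not tested.

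Other genes of the pathway, taken from lists written out by name, went in both directions. Of 22 further fatty acid oxidation genes 16 were tested, and 8, 7 and 8 were higher and 2, 2 and 2 lower in AΦ in the 3 comparisons, with medians of 0.35, 0.42 and 0.54. Pecr, a peroxisomal enoyl-CoA reductase, was higher by 2.47, 1.70 and 2.5. The synthetase Acsl3 was called lower in AΦ, with log2 fold changes of -1.09, -1.43 and -0.86.

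Among 15 regulators 11 were tested, with 4, 6 and 6 higher and 1, 1 and 2 lower in AΦ. Rxra, the partner of the PPAR receptors, was higher by 2.16, 1.89 and 2.04. Pparg was 47.0 to 89.4 FPKM in AΦ and 2.31 to 14.6 in the monocytes of 32 weeks, with log2 fold changes of 3.13 and 3.05 there, but stood at 14.6 to 54.5 in the monocytes of 4 weeks, and the change of its difference with time was called (2.10, adjusted p = 0.00193). Sirt1, a deacetylase, was called lower in AΦ (-1.14, -1.10 and -0.97). Ppara was listed at 0 in all 18 AΦ libraries. Of 16 genes of the TCA cycle, which takes up acetyl-CoA, 8, 7 and 9 were higher and 1, 0 and 0 lower. Of 16 genes of mitochondrial membranes and import 6, 8 and 10 were higher and 0 lower in each. Of 16 genes of peroxisome biogenesis 15 were tested, with 5, 5 and 7 higher and 3, 1 and 0 lower, and Pex11a, which promotes peroxisome division, had 1.44, 1.49 and 1.93. The median log2 fold changes of these last 3 lists lay between 0.10 and 0.63, beside 0.98 to 1.08 for the 33 genes.

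Between BM-AΦ and TR-AΦ at 32 weeks limma called 0 of the 33 genes (0.316% of all 12665 genes tested), with 2 at an unadjusted p under 0.05 (7.45%) and 0 whose groups did not overlap (1.37% of all genes). Acot1 was 32.4 to 39.8 FPKM in BM-AΦ (median 34.8) and 38.7 to 59.2 in TR-AΦ (median 45.7), a log2 difference of -0.42 (95% interval -0.71 to -0.13, adjusted p = 0.347). Ehhadh was 8.98 to 13.6 against 11.4 to 17.2 FPKM (-0.29, -0.53 to -0.05, 0.517). Over all 33 genes the 95% intervals lay between -0.71 and 0.88, within 1 log2 unit of 0.

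In TR-AΦ the genes were compared between 32 and 4 weeks, within each exposure. In FA exposed mice 1 of 33 was called, where 0.782% of all genes were, and 30 of 33 had a higher mean at 32 weeks (median 0.18, all genes 0.01). This gene was Ehhadh, which rose from 6.71, 8.66 and 8.90 FPKM to 15.4, 17.2 and 15.5 (log2 fold change 0.91, SE 0.16, adjusted p = 0.0127). The groups did not overlap for 5 genes, Cpt1a, Abcd2, Acaa1b, Ehhadh and Acot1, each higher at 32 weeks (7.62% of all genes). In PM2.5 exposed mice limma called 0 (1.05% of all genes), with 9 at an unadjusted p under 0.05 (15.2%), and 31 of 33 had a higher mean at 32 weeks (median 0.28, all genes 0.03). The smallest p were those of Cpt1a (62.1, 45.0 and 47.2 against 70.4, 72.3 and 74.8 FPKM, 0.50, 95% interval 0.23 to 0.77, adjusted p = 0.0763) and Crat (11.2, 11.1 and 13.6 against 20.2, 19.1 and 20.5 FPKM, 0.70, 0.31 to 1.08, 0.0838). Here 7 genes were higher (10.1% of all genes) and 1, Eci1, was lower (8.23%) at 32 weeks without overlap. Ehhadh in PM2.5 exposed mice stood at 11.2, 8.71 and 7.18 FPKM at 4 weeks and at 11.4, 11.8 and 11.8 at 32 weeks. The call of Ehhadh in FA was lost on rescaling to an equal sum (adjusted p = 0.0849), in a model of only these libraries (0.126), and without FA replicate 0 of 4 weeks (0.0782) or replicate 1 of 32 weeks (0.0503). Without PM2.5 replicate 0 of 4 weeks 3 genes were called in PM2.5 (Acot1, Cpt1a and Cpt2), and without the 4-week libraries that hold monocyte markers Crat was called (0.78, 0.0465). Duration of exposure and age cannot be told apart in this comparison.

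PM2.5 and FA exposed mice were compared within each of the 6 populations to ask whether inhaled particles changed these genes. In AΦ limma called 0 of 33 genes in TR-AΦ at 4 weeks (0.0079% of all genes), 0 in TR-AΦ at 32 weeks (0% of all genes) and 0 in BM-AΦ (0.0158% of all genes), with 0, 1 and 0 at an unadjusted p under 0.05 (2.94%, 3.13% and 2.05% of all genes). The half-width of the 95% intervals was 0.24 to 0.92 log2 units (median 0.42), which limits what 3 mice per group could show. Over the 33 genes the intervals reached from -1.18 (TR-AΦ at 4 weeks) to 1.09 (BM-AΦ), so a change of 1 log2 unit stays possible for some genes. In TR-AΦ at 4 weeks 25 of 33 genes had a lower mean in PM2.5 (median -0.14, all genes -0.02). The smallest p were those of Cpt1a (54.7, 64.7 and 61.5 FPKM in FA, 62.1, 45.0 and 47.2 in PM2.5, -0.24, 95% interval -0.51 to 0.03) and Acadvl (-0.23, -0.50 to 0.04). Acsl1 and Acadvl were lower in PM2.5 without overlap (3.51% of all genes). At 32 weeks Ehhadh was lower in PM2.5 than in FA without overlap, with 15.4, 17.2 and 15.5 FPKM in FA and 11.4, 11.8 and 11.8 in PM2.5 (-0.42, 95% interval -0.76 to -0.08, unadjusted p = 0.0196, adjusted p = 1). Acadvl and Hadha were also lower (2.76% of all genes) and Crat higher (3.23%) without overlap, and Acaa1b had -0.45 (-0.91 to 0.02). In BM-AΦ the smallest p were those of Acaa1b (-0.32, -0.78 to 0.14) and Eci1 (-0.38, -1.01 to 0.25), and 0 genes were without overlap (6.44% of all genes).

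Whether the effect of PM2.5 differed with time or origin was tested by interaction. For exposure by time in TR-AΦ limma called 0 of 33 genes (0.0079% of all genes), with 1 at an unadjusted p under 0.05 (3% of all genes), Ehhadh (-0.55, 95% interval -1.03 to -0.07, adjusted p = 1), followed by Acsl1 (0.55, -0.11 to 1.22). For exposure by origin at 32 weeks it called 0 (0.0158% of all genes), with 0 at an unadjusted p under 0.05 (1.89%). The smallest p were those of Ehhadh (0.30, -0.18 to 0.78) and Acaa2 (-0.21, -0.68 to 0.25). The comparisons by time, by exposure and their interaction share the same Ehhadh libraries, in which the FA group of 32 weeks is the highest of the 12 groups.

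In monocytes PM2.5 against FA also gave 0 calls of the 31 genes tested: at 4 weeks (0.00778% of all 12856 genes), in CD45.1 cells at 32 weeks (0% of all genes) and in CD45.2 cells at 32 weeks (0% of all genes), with 1, 4 and 0 at an unadjusted p under 0.05 by limma (2.12%, 4.74% and 4.25%). Acaa1b and Ehhadh were too low in monocytes to be tested. The median half-width of the 95% intervals was 0.59. At 4 weeks Cpt2 was 4.27, 5.72 and 3.25 FPKM in FA and 7.34, 7.48 and 6.91 in PM2.5 (0.63, 0.09 to 1.17, unadjusted p = 0.0252, adjusted p = 1), and Acot1 had 0.56 (-0.24 to 1.37). In CD45.1 monocytes Acaa2 was 7.57, 3.56 and 3.60 FPKM in FA and 8.17, 8.6 and 11.9 in PM2.5 (0.89, 0.28 to 1.5, unadjusted p = 0.00738, adjusted p = 0.946), and Acot2 had 0.63 (0.18 to 1.08). In CD45.2 monocytes at 32 weeks Cpt1a had 0.76 (-0.02 to 1.54) and Abcd2 0.77 (-0.08 to 1.62). Cpt2 and Hadh were higher in PM2.5 without overlap at 4 weeks (3.54% of all genes). In CD45.1 cells Acaa2, Acot2 and Eci1 were higher (6.49%) and Acot1 lower (2.4%), and in CD45.2 cells of 32 weeks Hadha was higher (3.81%) and Acadvl lower (2.57%).

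**Figure D4:**
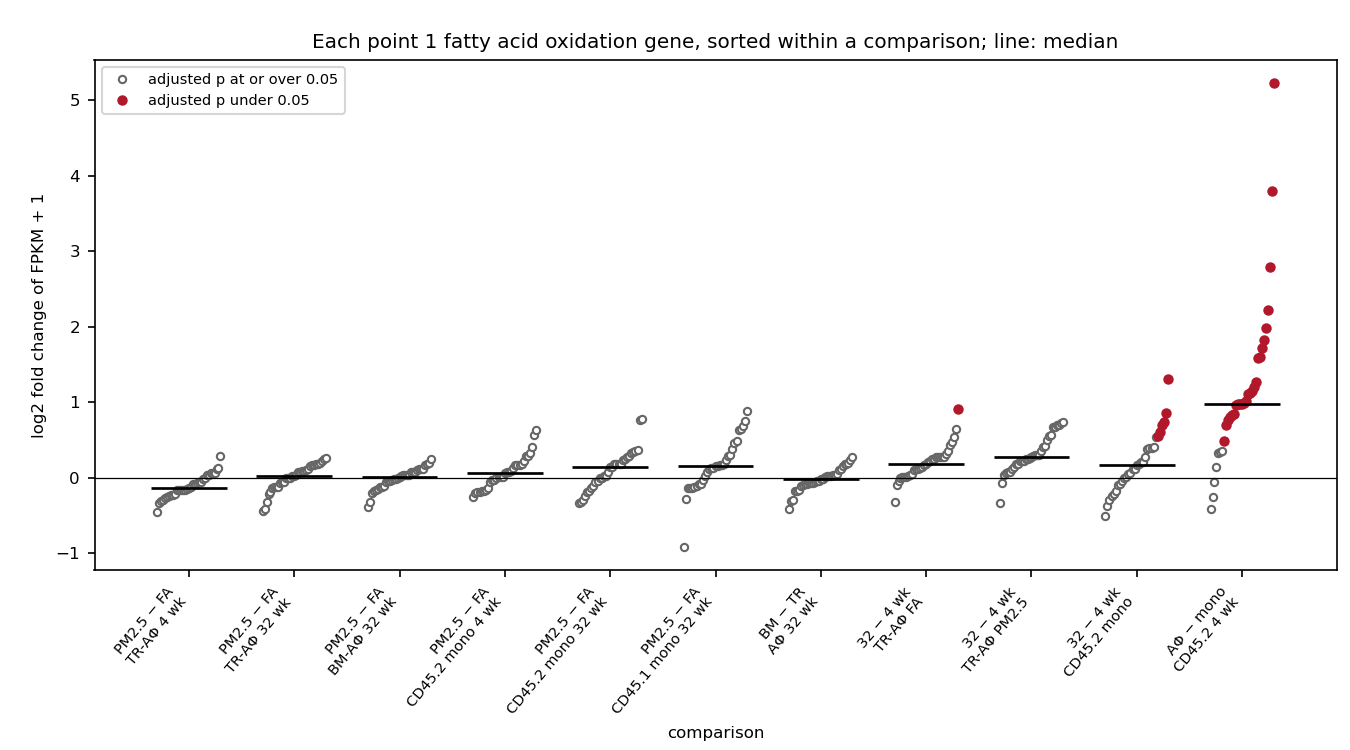
Log2 fold change of FPKM + 1 (vertical axis) of each gene tested (points, sorted within a comparison) in 11 comparisons, with the median as a black line and red points for an adjusted p under 0.05. Red points are 26 in AΦ minus monocytes at 4 weeks, 6 in CD45.2 monocytes of 32 minus 4 weeks, 1 in TR-AΦ of 32 minus 4 weeks in FA, and 0 in the 6 comparisons of PM2.5 minus FA.

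CD45.2 monocytes of 32 weeks were compared with those of 4 weeks over both exposures. Of 31 genes tested 6 rose and 0 fell (7.06% and 7.83% of all genes), and 5 were higher without overlap (4.06% of all genes). Acot1 stood at 6.71, 3.54 and 3.27 FPKM (FA) and 4.37, 8.95 and 3.94 (PM2.5) at 32 weeks, above each of the 6 libraries of 4 weeks (0.304 to 2.97), a log2 fold change of 1.3 (SE 0.27, adjusted p = 0.00457). Cpt2 rose by 0.85 (SE 0.18, 0.00553), Decr1 by 0.73 (SE 0.16, 0.00623) and Acot2 by 0.70 (SE 0.15, 0.00616). Crat rose by 0.61 (SE 0.13, 0.00744) and Hsd17b4 by 0.55 (SE 0.13, 0.0115). The most negative value was that of Etfdh (-0.51, adjusted p = 0.0967). Without FA replicate 0 of 4 weeks 7 genes were called, the seventh being Etfdh as lower. Without the 4-week libraries that hold neutrophil markers 5 were called, and Crat was not (0.51, 0.0505). On rescaling to an equal sum 7 genes were called, and the share of all called genes that were higher moved from 47.4% to 64.1%. Of the other pathway genes Slc27a1 (1.82), a fatty acid transport protein, also rose. Regulators went both ways: Rxra (0.48) was among those that rose, and Pparg (-1.8) and Sirt1 (-0.62) fell. Against the CD45.1 monocytes of 32 weeks limma called 0 (0.669% of all genes), with 4 at an unadjusted p under 0.05 (9.59%) and 0 without overlap (1.18%). There Acot1 had 1.09 (95% interval 0.52 to 1.66, adjusted p = 0.10) and Decr1 0.41 (0.07 to 0.75, 0.369).

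Some AΦ markers stood higher in the same libraries. Over all 10 AΦ markers the summed FPKM was 400 to 1639 in CD45.2 monocytes of 32 weeks, 430 to 707 in those of 4 weeks and 281 to 856 in CD45.1 monocytes. The sum of 9 monocyte markers was 1192 to 3332, 3326 to 4405 and 2199 to 3618. The markers did not move alike between CD45.2 monocytes of 32 and 4 weeks. Nr4a1 (492 to 956 against 1506 to 2397 FPKM), Treml4 (9.61 to 60.2 against 105 to 341) and Spn (19.7 to 148 against 158 to 439) were lower without overlap. Ly6c2, Ccr2, Plac8 and the others overlapped. In CD45.2 monocytes of 32 weeks Ear1 stood at 36.6, 23.1 and 15.7 FPKM (FA) and 14.3, 80.1 and 17.1 (PM2.5). That was 1.37% to 7.64% of its mean in TR-AΦ of 32 weeks. Plet1 (7.86 to 53.9 FPKM) and Marco (0.483 to 4.86) also lay above all other monocyte libraries, in which Marco was 0 to 0.117. Siglecf (1.36 to 8.99), Itgax, Fcgr1, Mertk, Chil3, Ear2 and Car4 overlapped with them. Ear2 stood at 42.9 to 299 FPKM, against 148 to 481 in CD45.2 monocytes of 4 weeks. Mertk stood at 6.88 to 44.2 FPKM, against 0.139 to 11.01 in the other monocytes and 61.9 to 94.9 in TR-AΦ of 32 weeks. Acaa1b stood at 0.853% to 8.11% of its TR-AΦ mean, Ehhadh at 4.21% to 23.5%, Acot1 at 6.85% to 18.7%, Cpt2 at 19.0% to 41.2%, Crat at 36.8% to 55.5% and Decr1 at 58.2% to 99%. These percentages include the level that other monocytes also had. Less the mean of the other monocyte libraries, Ear1 was at 1.29% to 7.56%, Acaa1b at 0.804% to 8.06% and Ehhadh at 1.07% to 20.4%. Acot1 was then at 3.22% to 15.1%, Cpt2 at 0.156% to 22.4%, Crat at 5.22% to 23.99% and Decr1 at 13.8% to 54.6%. The library with the most Ear1, PM2.5 replicate 1, had the highest Acot1 (8.95), Ehhadh (3.26), Acot2 (6.08) and Crat (10.3) of the monocytes. Other genes peaked elsewhere: Cpt2 (16.4) and Decr1 (5.63) in PM2.5 replicate 2, and Hsd17b4 (13.9) and Acaa1b (4.54) in FA replicate 0. Without PM2.5 replicate 1 the same 6 genes were called. All 6 libraries hold Ear1, and the part of these markers in the result was not tested.

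**Figure D5:**
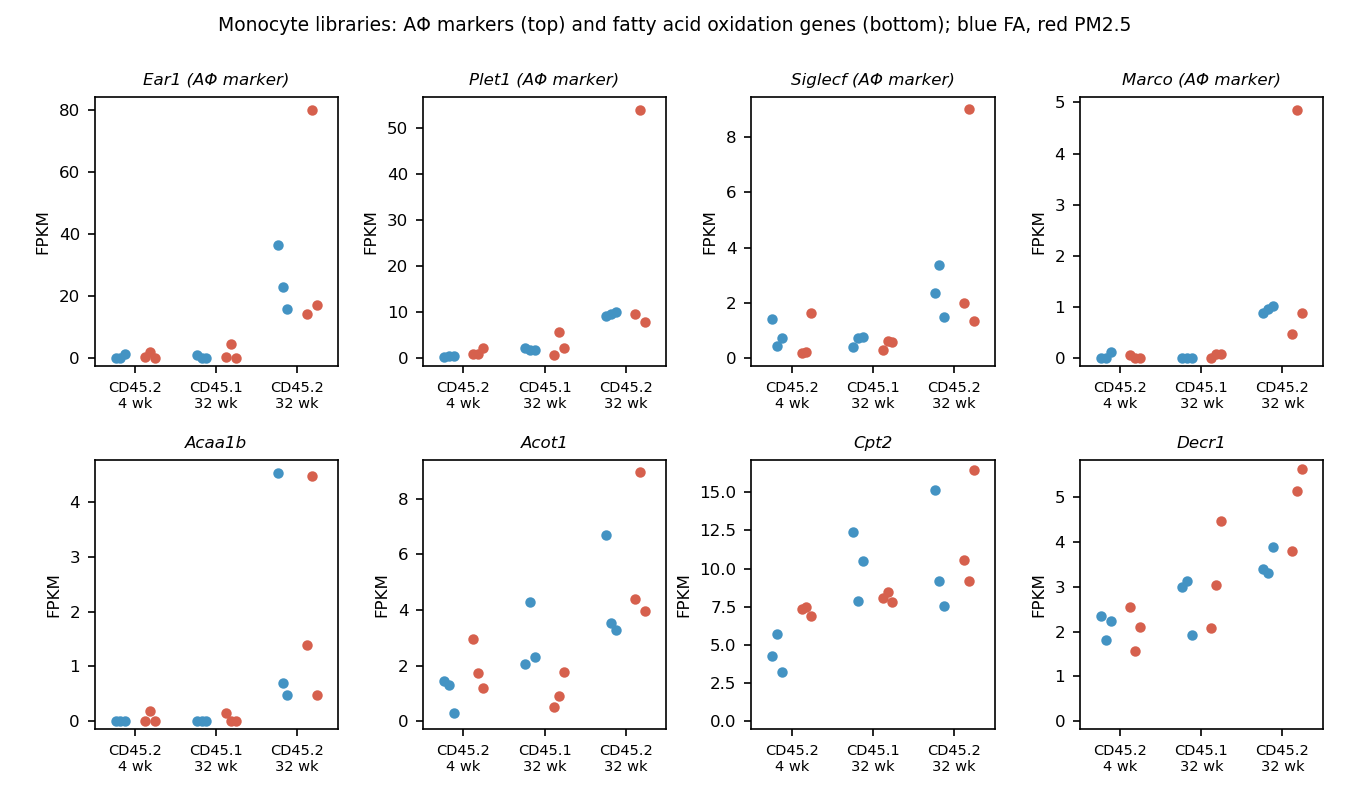
FPKM of 4 AΦ markers (top row) and of Acaa1b, Acot1, Cpt2 and Decr1 (bottom row) in each of the 18 monocyte libraries (points, blue FA and red PM2.5), by origin and time. The CD45.2 libraries of 32 weeks lie above the other 2 populations for Ear1, Plet1, Marco and Acaa1b, with the PM2.5 library of 80.1 FPKM Ear1 standing apart.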

How the data were processed

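RNA-seq of AΦ and monocytes sorted by flow cytometry from mouse lung was analysed in 36 libraries, 3 in each of 12 groups. The libraries of one exposure and time may come from the same 3 mice, and the labels do not link them. The authors made the libraries with a stranded SMART-Seq kit, trimmed the reads with TrimGalore, aligned them to mm10 with STAR and computed FPKM with Cufflinks, and these deposited FPKM values were used as they stand. The authors compared pairs of groups with Cuffdiff, and none of those comparisons was used. There are 0 unused sample columns. FPKM carry no read counts, so depth is unknown and no counting interval can be given.

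The 33 genes and all other lists were chosen with earlier results of these data known, and all 33 genes are named. In a comparison with calls, up to 6 genes per direction with the largest log2 fold change have full statistics, and otherwise the 2 genes with the smallest p. limma 3.58.1 in R 4.3.3 was fitted to log2(FPKM + 1) with 1 mean per group and a variance trend, and a gene was tested if its FPKM averaged 1 or more over the libraries fitted: 13307 genes in 36 libraries, 12665 in the 18 AΦ libraries (33 of the 33 genes) and 12856 in the 18 monocyte libraries (31). Benjamini-Hochberg adjustment was made within each of 18 comparisons, with a threshold of 0.05. Same-numbered libraries were not treated as pairs. The p-values rest on the spread between libraries within a group, pooled over all groups of the fit and not only those compared. The code was tested on simulated data.

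Alternatives were rescaling to a sum of 1000000, quantile normalization, testing low genes too, a pseudocount of 0.1, a replicate block, a block within exposure and time, a model of only the libraries compared, and leaving out each library in turn. Leaving out the 2 AΦ libraries of 4 weeks that hold monocyte markers, and the 2 monocyte libraries of 4 weeks that hold neutrophil markers, was chosen after seeing the data. Gene positions are from GENCODE vM21 and upstream sequences from RefSeq (GRCm38.p6), read with Python 3.11.15. Some further genes of the pathway are not reported here. Positions and sequence of Acaa2 and Hsd17b4 are not given. Figures were drawn with matplotlib 3.10.9. Flow cytometry and other assays were not analysed here.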

Additional observations from a re-analysis of the deposited data

Results flagged for a closer look

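Hadha went opposite ways with PM2.5 in the CD45.2 cells of 32 weeks. In TR-AΦ it stood at 51.4, 51.5 and 57.5 FPKM in FA and 45.3, 49.9 and 51.3 in PM2.5, with every PM2.5 library below every FA library (log2 fold change -0.13). In CD45.2 monocytes it stood at 16.7, 19.5 and 18.3 FPKM in FA and 21.6, 20.8 and 22.1 in PM2.5, with every PM2.5 library above every FA library (0.23). The 2 log2 fold changes are 0.362 apart. That difference was not tested, and neither fold change passed limma's threshold after Benjamini-Hochberg adjustment (adjusted p = 1 in each). Of all genes tested 2.76% were lower without overlap in TR-AΦ and 3.81% were higher without overlap in the monocytes. Hadha was highest in the library numbered 2 in 11 of 12 groups.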

How the results depend on the processing

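Counts of called genes stayed within 1.5 times the reported count in 306 of the values recomputed, and 11 moved beyond it. For AΦ against monocytes the counts were 25 to 28 (4 weeks), 25 to 28 (CD45.2, 32 weeks) and 29 to 31 (CD45.1) over all alternatives, and 5 to 9 for CD45.2 monocytes of 32 against 4 weeks. Cell type by time moved from 0 to 1 with a pseudocount of 0.1 (Acaa1b), with quantile normalization (Acadm) and with a replicate block within exposure and time (Abcd2), and cell type by origin to 1 with a pseudocount of 0.1 (Acaa1b). For TR-AΦ of 32 against 4 weeks in FA the count was 0 on rescaling to an equal sum and 0 in a model of only the libraries compared, and 0 to 1 with a library left out. In PM2.5 it was 1 with a replicate block (Crat, adjusted p = 0.0183), 1 without the 2 libraries that hold monocyte markers, and 0 to 3 with a library left out. The cause was not tested.

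Signs turned for values near 0 that were not called. On rescaling, Acsl5 was 0.017 at 4 weeks and 0.22 in CD45.1 cells, and Slc25a20 was 0.19 at 4 weeks. Slc25a20 was 0.16 at 4 weeks without the monocyte libraries that hold neutrophil markers. With a library left out, Slc25a20 at 4 weeks went from -0.26 to 0.080 (above 0 also at 0.057, 0.025 and 0.015), Acsl5 from -0.022 to 0.24 in CD45.2 and from -0.21 to 0.021 in CD45.1 cells at 32 weeks, and Acsl4 from -0.014 (and -0.013) to 0.25 in CD45.1 cells.

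In 66 pairs of groups none had every same-number correlation over 0.1 (-0.10 to 0.21). This bar cannot show whether same-numbered libraries share a mouse. In each of the 14 pairs of the same exposure and time, the median same-number correlation was above the median for other numbers. The values ran from 0.0048 against -0.0015 (FA TR-AΦ and CD45.2 monocytes of 32 weeks) to 0.069 against -0.044 (PM2.5 TR-AΦ and CD45.1 monocytes of 32 weeks). Same-number correlations between different times reached 0.20. Same-numbered libraries were not taken as pairs, although some genes followed the number across groups. With the replicate block all-gene calls for TR-AΦ of 32 against 4 weeks in PM2.5 went from 34 higher and 99 lower to 170 and 211, 9 of the genes described were called in CD45.2 monocytes of 32 against 4 weeks, and Acsl4 was called lower in AΦ at 4 weeks (-0.41, adjusted p = 0.00029). Depth is unknown, so the precision of low values such as Acaa1b in monocytes cannot be given.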

Other observations

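Some of these genes followed the number of the library, which the labels give no meaning. Acsl4 was lowest in the library numbered 0 in 12 of 12 groups and highest in that numbered 2 in 11 of 12. Hadha and Etfa were highest in the library numbered 2 in 11 of 12 groups, and Abcd3 was lowest in that numbered 0 in 11. Of 13307 genes 443 (3.33%) were lowest in the library numbered 0 in all 12 groups, and 431 (3.24%) were highest in that numbered 2 in at least 11. Acads went the other way, lowest in the library numbered 0 in 1 group and highest in that numbered 2 in 0 groups.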
